A study of Homo sapiens with 7 samples.

Results

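RAB GTPases are small switch proteins that mark the membranes of the cell and steer vesicles between them. The members were all genes of the deposited table whose symbol is RAB followed by a number and at most 1 letter, which gave 52 of 14535 genes. The rule used no measured value. A total of 49 of the 52 passed the filter on low counts and were tested among 11230 genes. The cells were A549, an established line of human lung adenocarcinoma epithelium. In 3 libraries they had received 100 nM doxorubicin, a DNA-damaging topoisomerase II poison, for 24 h. The 4 stretch libraries came from cells under cyclic stretch, with 15% elongation, at 15 cycles per min and for 24 h. In both groups, cells were stained for β-galactosidase, a lysosomal enzyme used as a mark of senescence, after 6 days, and RNA came from sorted positive cells. The sort means that both groups are positive for a lysosomal enzyme by selection, and no untreated cells were analysed here. The comparison asks how stained cells from stretch differ from stained cells from the drug. Whether the libraries are of separate cultures is not said in the labels. A p-value here thus reflects library-to-library spread, possibly only technical.

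A RAB protein cycles between an inactive GDP-bound form, held in the cytosol by a GDP dissociation inhibitor, and an active GTP-bound form on a membrane. Exchange factors switch it on, GTPase-activating proteins switch it off, and effectors such as tethers and motor adaptors bind the active form. Each compartment has its own members: RAB1 and RAB2 between the endoplasmic reticulum and the Golgi, RAB5 on early endosomes, RAB11 on recycling endosomes, RAB7 on late endosomes and lysosomes, and RAB3, RAB8 and RAB27 on vesicles bound for the plasma membrane. In alveolar type II cells, which A549 is often used to model, RAB38 and RAB3D take part in the traffic of surfactant-storing lamellar bodies.

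The libraries differed in depth and make-up along with the groups. Total counts were 2611766 to 4644650 in the doxorubicin libraries and 5636494 to 7419798 in the stretch libraries. A level of 3 counts was 2.59 CPM (the usual depth-scaled count unit, here on TMM-scaled library sizes) in doxorubicin library 2, the shallowest, and 0.321 to 0.401 CPM in the stretch libraries. A single gene, EIF4A2, took 30.6% of the counts of doxorubicin library 2 and at most 2.87% of any stretch library. Doxorubicin library 3 correlated across genes with the stretch libraries at 0.915 to 0.941, with doxorubicin library 1 at 0.882 and with doxorubicin library 2 at 0.754. All 12 epithelial and A549 markers examined were in the table, and 9 to 12 of them reached 3 counts in a given library. AKR1C2 and AKR1C3 had at most 6 and 3 counts. The summed level of the 12 was 7635 to 11610 CPM after doxorubicin and 6922 to 7864 CPM after stretch. Of the 10 tested, 4 lay toward stretch and 6 toward doxorubicin, with log2 fold changes from -2.2 to 1.79. Of them 1 was called, higher in doxorubicin (10%, against 2.32% of all tested genes). Of 12 markers of blood, fibroblast and endothelial cells, 7 were in the table, with sums of 66.9 to 127 against 35.5 to 41.5 CPM. CD68, which marks macrophages and also codes a lysosomal membrane protein, stood at 104, 76.1 and 46.7 CPM after doxorubicin and 16.7 to 20 CPM after stretch, 4.04-fold higher in doxorubicin (adjusted p = 0.0158 by edgeR). CD14 was present in every library, at 8.71 to 13.8 CPM, and COL1A1 at 4.54 to 14.7 CPM. The other 4 (CDH5, COL3A1, DCN and LUM) had at most 23 counts, and CDH5 had 0 after doxorubicin and 0, 9, 3 and 3 after stretch. In the edgeR fit with EIF4A2 and TAF1D left out, 0 of 49 RAB genes had an adjusted p under 0.05, as did 252 of all 11284 genes. The RAB median log2 fold change was then 0.194, beside 0.187 with both genes kept. The part of depth, of these markers and of whatever set the EIF4A2 share in the results below was not tested.

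No RAB gene differed between the groups past the threshold. Of the 49 tested, 0 had an adjusted p under 0.05 in edgeR's quasi-likelihood test, where 2.32% of all tested genes did (1.97% higher in doxorubicin and 0.356% higher in stretch). An unadjusted p under 0.05 was reached by 9 RAB genes (18.4%), 6 toward doxorubicin and 3 toward stretch, beside 23.2% of all tested genes. The group ranges did not overlap for 13 RAB genes (26.5%), near the 21.4% of all genes. Of these, 7 were higher in stretch, where the share of all genes was 11.5%, and 6 in doxorubicin, where it was 9.88%. Among the 7, RAB9A, RAB17 and RAB33A had few counts after doxorubicin, with 0 in library 2. The median log2 fold change, stretch minus doxorubicin, was 0.19 over the RAB genes and 0.02 over all genes, and the median size regardless of sign was 0.42 against 0.53. Differences over 2-fold were seen in 10 RAB genes (20.4%) and in 21.8% of all genes. On these counts the family lay near the rest of the transcriptome. Among genes with a mean of at least 10 CPM, the median was 0.0004 over 32 RAB genes, 16 of them on the stretch side. It was -0.0016 over all such genes. Without doxorubicin library 2, the medians were 0.045 over the RAB genes and -0.01 over all genes. The summed level of the RAB genes was 3224, 3365 and 2826 CPM after doxorubicin and 2636, 2474, 2694 and 2481 CPM after stretch, without overlap, and the sum holds RAB34 (611 ± 318 against 275 ± 40.9 CPM, SD, n = 3 and 4) and RAB5B (421 ± 131 against 244 ± 13.4 CPM). In bulk RNA, fewer cells that express a gene and less of its RNA per cell cannot be told apart.

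The side on which the sum and many genes lay depended on the scaling. As a share of library totals, RAB counts were 0.235, 0.149 and 0.322% after doxorubicin and 0.350, 0.312, 0.336 and 0.318% after stretch, which overlap and lean the other way. With library totals in place of TMM factors, the median of all genes moved from 0.02 to 0.71 and that of the RAB genes from 0.19 to 0.87, and 44 of 49 RAB genes, in place of 30, lay on the stretch side. Directions below are on the TMM scale.

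**Figure D1:**
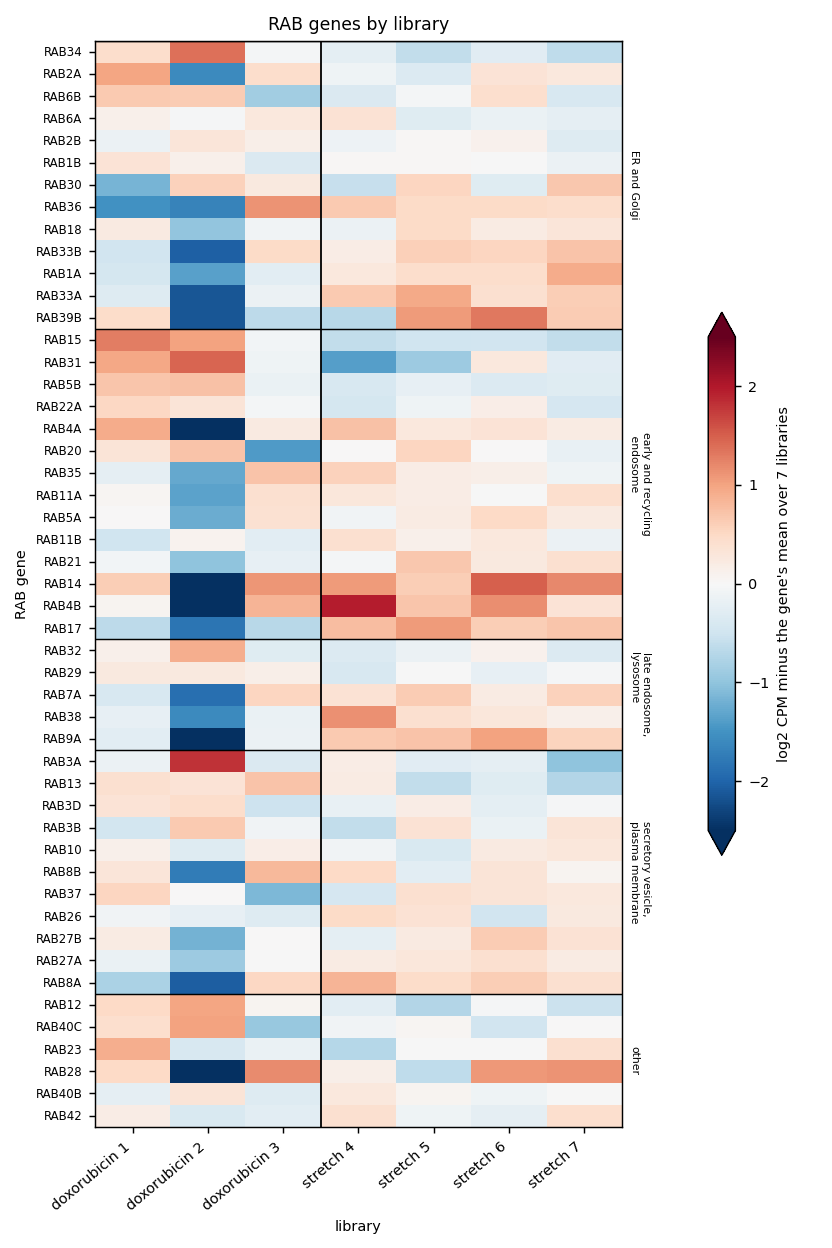
Level of each of the 49 tested RAB genes (rows, grouped by compartment) in each of the 7 libraries (columns), as log2 CPM (prior count 2) minus the gene's mean over the 7 libraries; red is above and blue below that mean. Doxorubicin library 2 holds the lowest value of 24 genes and the highest of 13, and doxorubicin library 3 lies within the stretch range for 21.

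As the map of levels by library shows, doxorubicin library 2 often stood at an extreme. It had the lowest value of the 7 libraries for 24 of 49 RAB genes (49.0%, against 40.7% of all tested genes) and the highest for 13 (26.5%, against 28.4%). At least 3 counts were found for 38 of the 52 genes in that library, 47 and 48 in the other doxorubicin libraries and 49 or 50 in stretch. Doxorubicin library 3 lay within the stretch range for 21 of 49 (42.9%, against 43.3% of all tested genes). The median standard error of a RAB gene's log2 fold change was 0.42, so many 2-fold differences could not be detected at this depth and spread.

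Other fits called some RAB genes. DESeq2 called 3 of 50, all higher in doxorubicin (RAB15, RAB34 and RAB43), where it called 10% of all genes. RAB43 had not passed the filter used for edgeR, had at most 3 counts in any library and shares most of its sequence with another gene. By limma-voom 0 of 49 were called, where 1.66% of all genes were. Without doxorubicin library 3, edgeR called 10 of 49 (20.4%), where 32.2% of all genes were called. Those were RAB1A, RAB7A, RAB8A, RAB33B and RAB36, higher in stretch, and RAB5B, RAB12, RAB15, RAB31 and RAB34, higher in doxorubicin. With library quality weights, limma-voom called 19 of 49 (38.8%), where 47.2% of all genes were called. In each of these fits the share of RAB genes called was below that of all genes. With library 3 as the only doxorubicin library, 0 RAB genes were called and the median was 0.12.

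**Figure D2:**
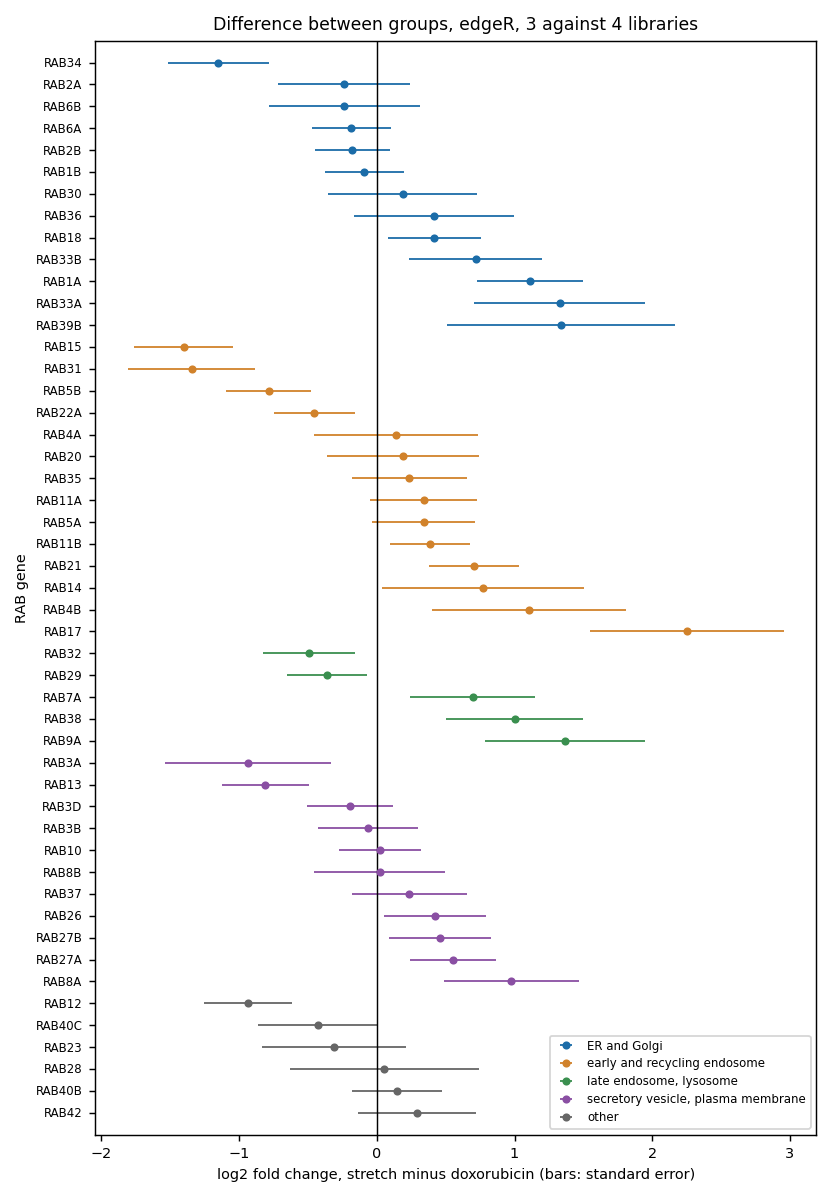
Log2 fold change, stretch minus doxorubicin, of the 49 tested RAB genes by edgeR (x axis; bars show the standard error), grouped by compartment. Values run from -1.40 for RAB15 to 2.25 for RAB17, which had at most 2 counts in any doxorubicin library, and 0 of the 49 passed an adjusted p of 0.05.

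Some RAB genes share sequence with others, which can move counts between them. In GENCODE 29 transcripts, at least 20% of the 31-base words of 9 members also occur, on either strand, in transcripts of other genes: RAB1A, RAB1B, RAB3D, RAB4B, RAB6A, RAB8A, RAB13, RAB23 and RAB43. The share was 42.5% for RAB8A, most of it with the antisense gene AC008894.2, and 81.4% for RAB43, most of it with the readthrough gene ISY1-RAB43. It was 0% for RAB8B and RAB34 and 2.94% for RAB15. Which stretch of each gene the amplicon covers, and whether counting used strand, is not given in the sources used here, so the values of those 9 are uncertain.

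Of the 14 tested members of early and recycling endosomes, 10 lay toward stretch (71.4%) and 4 toward doxorubicin. The stretch share was 61.2% of all tested RAB genes and 51.2% of all tested genes. The group's median log2 fold change was 0.29, and -0.03 with doxorubicin library 3 alone. RAB15, which acts in endocytic recycling (chromosome 14, 64945814 to 64973226, GRCh38), had levels of 38.5, 32.0 and 14.9 CPM after doxorubicin (libraries 1, 2 and 3). After stretch (libraries 4 to 7) it had 10.1, 11.0, 11.1 and 10.2 CPM. All doxorubicin libraries lay above all stretch libraries, and library 3 was the closest. The fitted log2 difference was -1.40 (SE 0.36), with an adjusted p of 0.0643 by edgeR, the lowest of the family. It was -0.47 with doxorubicin library 3 alone, and the adjusted p ran from 4.95e-06 to 0.457 over 16 alternatives.

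RAB31, which carries cargo between the trans-Golgi and endosomes, stood at 75.8, 107 and 35.9 CPM after doxorubicin and 14.7, 20.4, 46.7 and 31.7 CPM after stretch. The ranges overlapped through doxorubicin library 3 and stretch library 6. Stretch minus doxorubicin was, in log2, -1.34 (SE 0.46, adjusted p = 0.124 by edgeR), and -0.32 with doxorubicin library 3 alone.

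RAB5 proteins drive the fusion of early endosomes, and the tested RAB5 genes lay on opposite sides. RAB5B (chromosome 12, 55973913 to 55996683) stood at 492, 501 and 269 CPM after doxorubicin and 231, 262, 238 and 245 CPM after stretch. The doxorubicin libraries were all higher, library 3 by a narrow margin. edgeR gave a log2 fold change of -0.78 (SE 0.31, adjusted p = 0.160), and it was 0.08, on the other side, with library totals in place of TMM. RAB5A stood at 72.3, 30.3 and 93.2 against 67.2, 83.0, 101 and 83.7 CPM, with a log2 fold change of 0.34 (SE 0.37) that was -0.14 with doxorubicin library 3 alone. Its doxorubicin libraries spanned most of the stretch range, with library 2 far below. RAB5C was not analysed here.

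The start-site regions of RAB5B and RAB13 are shown as examples. Both genes had non-overlapping groups with doxorubicin higher. Both also hold the letters of the AP-1 element, TGANTCA, a sequence bound by the stress-responsive factors FOS and JUN. RefSeq windows of 300 bases (250 before and 50 after a start, GRCh38.p14) matched 40 of the 52 genes, in 60 windows. Each stretch below is 100 bases, 5′ to 3′ on the gene's strand, with the element in capitals. For RAB5B it is chr12:55973699-55973798 on the plus strand, and for RAB13 it is chr1:153985444-153985543 on the minus strand, before 1 of its annotated starts, within the span of the gene. The place of the 100 bases was set for each gene, and the window with most elements there was taken. The printed windows thus do not stand for all starts of a gene. The element begins 210 bases before the RAB5B start, and 102 and 89 bases before the RAB13 start.
RAB5B: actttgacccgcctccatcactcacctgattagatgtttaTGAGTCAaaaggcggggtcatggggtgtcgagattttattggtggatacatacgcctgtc
RAB13: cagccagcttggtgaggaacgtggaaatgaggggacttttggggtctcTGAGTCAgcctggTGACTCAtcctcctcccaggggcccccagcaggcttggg
The element, read on both strands, was found in 8 of the 60 RAB windows (13.3%), belonging to RAB3B, RAB5B, RAB13, RAB27A, RAB27B and RAB34, and in 7.71% of all windows. Of those genes, RAB5B, RAB13 and RAB34 lay on the doxorubicin side without overlap and RAB27A on the stretch side. RAB34 met the same terms as the printed genes, but its region is not printed. Of the other motifs searched, the E-box CACGTG stood in 8.33% of RAB windows against 7.26% of all, the interferon response core in 1.67% against 3.57%, CCAAT in 30% against 34.6%, and the GC box GGGCGG in 78.3% against 45%. The motifs were chosen after the values were seen, several windows of a gene overlap, and a match is a description of the letters only.

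On the stretch side of the endosomal group, RAB17, which works in apical recycling in epithelial cells (chromosome 2, 237574322 to 237601614), had counts of 1, 0 and 2 after doxorubicin and 12, 19, 13 and 14 after stretch. Its levels were 0.397, 0 and 0.378 CPM against 1.60, 2.03, 1.41 and 1.51 CPM. Every stretch library was higher, but the doxorubicin counts were under the level of 3 taken as detection, so the gene passed the filter through stretch alone. The stretch levels were also below the 2.59 CPM that 3 counts make in doxorubicin library 2. The fitted log2 fold change of 2.25 (SE 0.70, adjusted p = 0.0992 by edgeR) is set against a group in which RAB17 was not detected. RAB21, which carries integrins through early endosomes, stood at 60.0, 31.1 and 55.0 against 61.4, 100.5, 75.2 and 83.5 CPM, without overlap but with doxorubicin library 1 and stretch library 4 nearly level. On the log2 scale the difference was 0.71 (SE 0.33, adjusted p = 0.224 by edgeR).

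RAB14, which links the Golgi and endosomes, had 84, 0 and 247 counts after doxorubicin and 343, 312, 567 and 468 after stretch. The count of 0 in doxorubicin library 2, where 3 counts are 2.59 CPM, stood beside 33.4 and 46.7 CPM in the other doxorubicin libraries. These 2 libraries lay within or next to the stretch range of 33.4 to 61.3 CPM. RAB4B, a relative of the fast-recycling RAB4A, behaved alike, at 10.7, 0 and 18.9 CPM against 40.9, 16.8, 23.4 and 13.1 CPM. RAB14 and RAB4B had log2 fold changes of 0.25 and 0.64 when doxorubicin library 2 was left out, where they were 0.77 (SE 0.73) and 1.10 (SE 0.70) with all libraries.

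The recycling endosome pair RAB11A and RAB11B had log2 fold changes of 0.34 (SE 0.39) and 0.39 (SE 0.29). RAB11A stood at 149, 57.1 and 190.0 against 174.5, 164, 142 and 193 CPM, within the stretch range apart from doxorubicin library 2. RAB11B stood at 70.7, 107 and 83.9 against 133, 109.9, 121 and 91.2 CPM, overlapping through the same library, which was here the highest of its group. RAB4A was weak, at 9, 0 and 11 counts after doxorubicin and 19 to 23 after stretch (log2 fold change 0.14). The remaining tested genes of this group, RAB20, RAB22A and RAB35, had log2 fold changes of 0.19, -0.45 and 0.24, and their ranges overlapped. RAB25, the epithelial relative of RAB11, had at most 1 count in any library and was not tested.

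Late endosomes and lysosomes were represented by 5 tested members, and RAB7A is the one that leads fusion with lysosomes. RAB7A stood at 34.5, 12.1 and 66.5 CPM after doxorubicin and 58.9, 71.1, 53.0 and 68.3 CPM after stretch. Doxorubicin libraries 1 and 2 lay below the stretch range and library 3 inside it. The log2 fold change was 0.70 (SE 0.45, adjusted p = 0.373 by edgeR). It was 1.39 without doxorubicin library 3 (adjusted p = 0.0170 by edgeR) and -0.07 with library 3 alone, so its direction turned with that library.

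RAB38, known for lamellar bodies and other lysosome-related organelles, had counts of 7, 1 and 15 after doxorubicin and 56, 41, 37 and 33 after stretch. The levels were 2.78, 0.865 and 2.84 CPM against 7.48, 4.39, 4.0 and 3.55 CPM, with every stretch library higher. Stretch minus doxorubicin was 1.0 on the log2 scale (SE 0.50, adjusted p = 0.250 by edgeR). RAB9A, which returns receptors from late endosomes to the Golgi, also had non-overlapping groups, at 1.19, 0 and 1.32 against 2.54, 2.68, 3.35 and 2.37 CPM. Stretch minus doxorubicin was, in log2, 1.37 (SE 0.58, adjusted p = 0.188 by edgeR), on 3, 0 and 7 doxorubicin counts. The stretch levels lay near the 2.59 CPM that 3 counts make in doxorubicin library 2.

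RAB29 and RAB32, which act at the trans-Golgi and at lysosome-related organelles, lay on the doxorubicin side. RAB29 stood at 19.9, 19.9 and 18.7 against 12.7, 16.8, 14.5 and 16.6 CPM, without overlap and with doxorubicin libraries that hardly differed among themselves. edgeR gave a log2 fold change of -0.36 (SE 0.29, adjusted p = 0.464). RAB32 stood at 90.1, 156 and 67.5 against 65.6, 74.9, 88.8 and 65.3 CPM, overlapping, with a log2 fold change of -0.49 (SE 0.33). With library totals in place of TMM these became 0.37 and 0.42, on the other side.

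**Figure D3:**
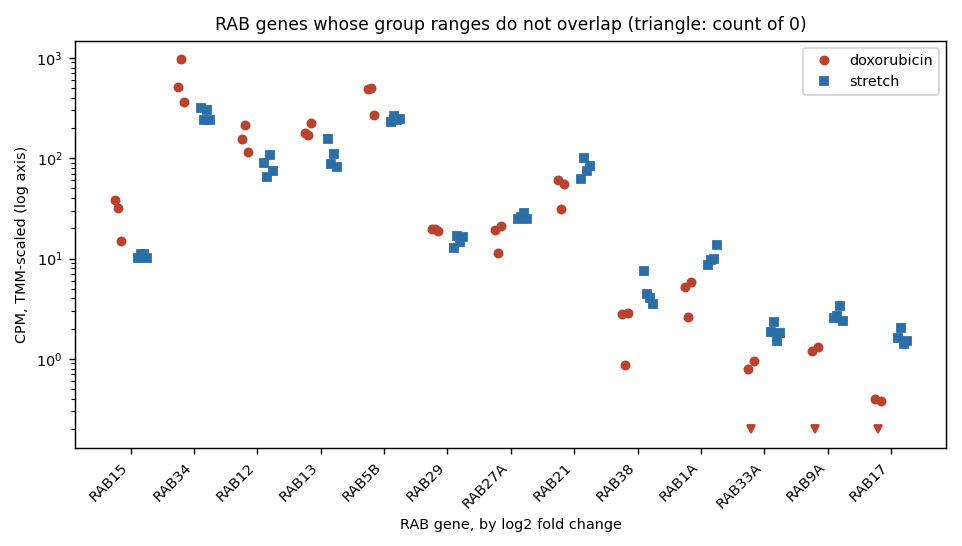
CPM in each library (log axis) of the 13 tested RAB genes whose group ranges do not overlap, ordered by log2 fold change; circles are the 3 doxorubicin libraries, squares the 4 stretch libraries, and a triangle at the bottom marks a count of 0. The 6 genes at the left are higher in doxorubicin and the 7 at the right higher in stretch, and the gap between the groups is narrow for RAB5B, RAB12 and RAB21.

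Members of the endoplasmic reticulum and Golgi group lay on both sides, 7 toward stretch and 6 toward doxorubicin. RAB34, a Golgi-linked member that positions lysosomes and acts in cilium formation (chromosome 17, 28714281 to 28718429), stood at 506, 968 and 359 CPM after doxorubicin. After stretch it stood at 315, 241, 305 and 238 CPM. Every doxorubicin library was higher, and library 2 by the most. On the log2 scale the difference was -1.15 (SE 0.37, adjusted p = 0.105 by edgeR). It was -0.37 with doxorubicin library 3 alone, and DESeq2 gave an adjusted p of 0.0443.

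RAB1A, the switch for transport from the endoplasmic reticulum to the Golgi (chromosome 2, 65070696 to 65130331), stood at 5.16, 2.59 and 5.86 CPM after doxorubicin and 8.68, 9.74, 9.84 and 13.8 CPM after stretch. Every stretch library was higher, and doxorubicin library 2 had 3 counts. The fitted log2 difference was 1.11 (SE 0.39, adjusted p = 0.127 by edgeR), and 0.86 with doxorubicin library 3 alone. RAB1B, which has the same task, stood at 210.1, 179.9 and 129 against 168, 169, 163 and 148 CPM, with a log2 fold change of -0.09 (SE 0.29).

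RAB2A and RAB2B, which act at the same step in Golgi traffic, had log2 fold changes of -0.24 (SE 0.48) and -0.18 (SE 0.27). RAB2A stood at 131, 21.6 and 88.8 against 60.7, 52.1, 84.0 and 79.6 CPM, so doxorubicin libraries 1 and 2 held its highest and lowest values. RAB6A, which moves vesicles within and out of the Golgi, stood at 144, 129 and 157 against 169, 107, 117 and 113 CPM (log2 fold change -0.19, SE 0.29). With library totals the values of RAB1B, RAB2A, RAB2B and RAB6A lay on the stretch side, at 0.71, 0.36, 0.57 and 0.51.

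RAB33A, a Golgi member best known from neurons and immune cells, had 2, 0 and 5 counts after doxorubicin and 14, 22, 14 and 17 after stretch. Its groups did not overlap, and the log2 fold change was 1.33 (SE 0.62, adjusted p = 0.228 by edgeR). The stretch levels of 1.51 to 2.35 CPM were below the 2.59 CPM that 3 counts make in doxorubicin library 2. RAB33A did not pass the filter when stretch library 5 or stretch library 7 was left out, so its test leans on the stretch counts. RAB36 had 5, 2 and 74 counts after doxorubicin and 75, 82, 81 and 80 after stretch. Doxorubicin library 3, at 14.0 CPM, was above the stretch libraries, at 8.61 to 10.01 CPM, while libraries 1 and 2 were far below, at 1.99 and 1.73 CPM. Its log2 fold change was 0.41 (SE 0.58), 2.27 without library 3 (adjusted p = 0.00568 by edgeR) and -0.61 with library 3 alone. The remaining tested genes of this group (RAB6B, RAB18, RAB30, RAB33B and RAB39B) had log2 fold changes from -0.24 to 1.34 with overlapping ranges. RAB39A had at most 4 counts and RAB43 at most 3, and neither passed the filter on low counts used for edgeR. The RAB43 counts were 1, 3 and 1 after doxorubicin and 0 in all stretch libraries.

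Of the secretory members, 7 of 11 tested genes lay toward stretch (63.6%, against 61.2% of all tested RAB genes) and 4 toward doxorubicin, with a median log2 fold change of 0.02. RAB13, which delivers proteins to tight junctions (chromosome 1, 153981617 to 153986358), stood at 178, 170 and 222 CPM after doxorubicin and 156.5, 87.7, 109 and 81.2 CPM after stretch. All doxorubicin libraries were higher, and library 3 was the highest. edgeR gave a log2 fold change of -0.81 (SE 0.32, adjusted p = 0.160), and -1.01 with doxorubicin library 3 alone. Of the 6 members higher in doxorubicin without overlap, RAB13 was the one whose value was larger with library 3 alone than with all 3 libraries.

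RAB8A, which carries post-Golgi vesicles to the plasma membrane and the cilium (chromosome 19, 16111629 to 16134234), stood at 31.8, 13.0 and 79.8 CPM after doxorubicin and 100.5, 76.3, 85.5 and 73.5 CPM after stretch. Doxorubicin libraries 1 and 2 lay below all stretch libraries and library 3 among them. On the log2 scale the difference was 0.98 (SE 0.49, adjusted p = 0.254 by edgeR), 1.88 without library 3 (adjusted p = 0.00372 by edgeR) and 0.09 with library 3 alone. RAB8B stood at 51.6, 12.1 and 73.3 against 59.1, 34.9, 52.3 and 43.6 CPM, with a log2 fold change of 0.02 (SE 0.47).

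RAB27A and RAB27B dock secretory granules and act in exosome release. RAB27A stood at 19.1, 11.2 and 21.2 CPM after doxorubicin and 24.6, 25.9, 28.1 and 24.5 CPM after stretch, without overlap. The fitted log2 difference was 0.55 (SE 0.31, adjusted p = 0.304 by edgeR). RAB27B stood at 32.2, 12.1 and 28.4 against 23.6, 32.8, 43.5 and 36.1 CPM, with overlap, and a log2 fold change of 0.46 (SE 0.37).

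RAB3 proteins hold secretory vesicles ready for regulated release. RAB3B stood at 36.1, 78.7 and 47.4 against 32.4, 64.4, 44.8 and 62.9 CPM, and RAB3D at 64.3, 69.2 and 35.2 against 44.5, 58.0, 42.5 and 49.9 CPM. The groups overlapped for both, with log2 fold changes of -0.07 (SE 0.37) and -0.20 (SE 0.31). RAB10, which delivers vesicles to the basolateral membrane, stood at 137, 101 and 142 against 119, 96.7, 147 and 154 CPM, with a log2 fold change of 0.02 (SE 0.30). RAB3A, RAB26 and RAB37, the others of this group, had log2 fold changes of -0.94, 0.42 and 0.24 with overlapping ranges.

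Of the 6 tested members outside these compartments, RAB12, which directs recycling-endosome cargo to degradation, was the one without overlap. It stood at 154, 215 and 115 CPM after doxorubicin and 90.0, 65.3, 107 and 74.8 CPM after stretch, with doxorubicin library 3 just above stretch library 6. Stretch minus doxorubicin was, in log2, -0.93 (SE 0.32, adjusted p = 0.124 by edgeR). RAB23, RAB28, RAB40B, RAB40C and RAB42 had values from -0.43 to 0.29.

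Close relatives were also compared within each library, as the log2 ratio of their counts, which needs no scaling between libraries. The 8 pairs were chosen after the values were seen, and with 3 libraries against 4 an exact permutation test cannot give a two-sided p below 0.0571. The RAB8A to RAB8B ratio was -0.70, 0.10 and 0.12 after doxorubicin. After stretch it was 0.77, 1.13, 0.71 and 0.75. All stretch libraries were higher, library 3 stood with the other doxorubicin libraries here, and the difference was 1.0 (exact two-sided permutation p = 0.0571, 0.229 adjusted over 8 pairs). It was 0.72 with doxorubicin library 3 alone and 0.73 to 1.14 when any single library was left out.

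The RAB1A to RAB1B ratio was -5.35, -6.12 and -4.46 after doxorubicin and -4.27, -4.12, -4.05 and -3.43 after stretch. The groups did not overlap, and the difference was 1.34 (exact two-sided permutation p = 0.0571, 0.229 adjusted over 8 pairs), but 0.49 with doxorubicin library 3 alone. The RAB5A to RAB5B ratio differed by 1.22 (exact two-sided permutation p = 0.229, 0.61 adjusted over 8 pairs), and by -0.03 with doxorubicin library 3 alone, which lay among the stretch libraries. The other 5 pairs differed by 0.05 to 0.28 with overlapping ranges. None of the 8 differences passed 0.05 by this permutation test, which cannot reach it with 3 libraries against 4. RAB8A, RAB1A and RAB1B are among the members whose values are uncertain through shared sequence. Doxorubicin library 2 had only 15 counts of RAB8A, 14 of RAB8B and 3 of RAB1A.

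**Figure D4:**
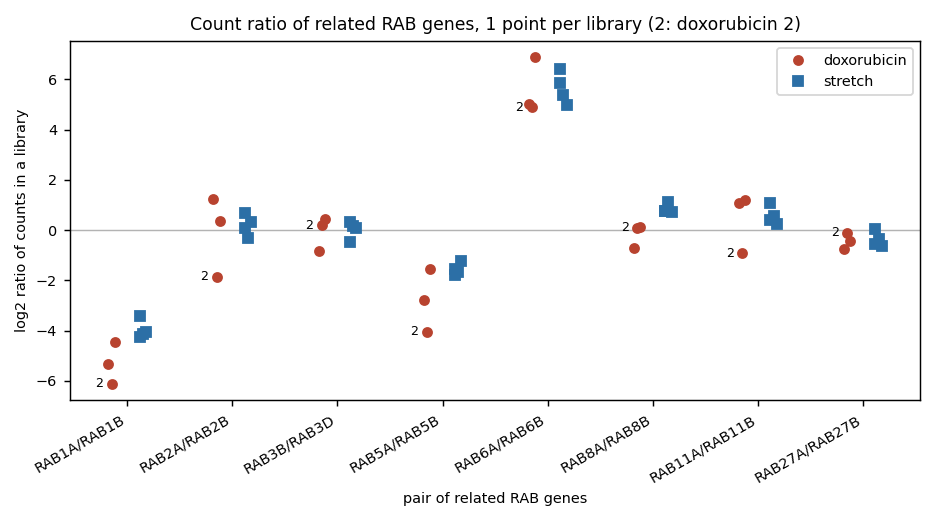
Log2 ratio of the counts of 2 related RAB genes within each library, for 8 pairs; circles are doxorubicin libraries (2 marks library 2) and squares stretch libraries. The RAB8A/RAB8B and RAB1A/RAB1B ratios are higher in every stretch library than in any doxorubicin library, and the other 6 pairs overlap.

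The proteins that switch and use RABs were read from the same fit, in lists of exchange factors, GTPase-activating proteins, escort proteins, effectors and tethers. Of 156 tested genes, 1 passed and was higher in doxorubicin (0.641%, below the 2.32% of all tested genes). It was DENND5A, an exchange factor that binds RAB6 and acts on RAB39 (chromosome 11, 9138825 to 9265390). DENND5A stood at 113, 173 and 82.4 CPM after doxorubicin and 47.7, 39.2, 47.1 and 34.8 CPM after stretch. All doxorubicin libraries were above all stretch libraries, library 3 included. The log2 fold change was -1.53 (SE 0.32, adjusted p = 0.0367 by edgeR), and -0.95 with doxorubicin library 3 alone (adjusted p = 0.138 by edgeR, where the spread comes from the stretch libraries only and the lone library is assumed to vary like them). It passed in 9 of 16 alternatives. It did not pass with library totals, without doxorubicin library 1 (adjusted p = 0.131 by edgeR) or without any 1 of stretch libraries 4 to 7 (0.0798 to 0.178).

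By list, 1 of 43 exchange factors was called and 0 of 36 GTPase-activating proteins, 0 of 12 GDP dissociation inhibitors, escort and prenylation proteins, 0 of 50 effectors and 0 of 16 tethers. At an unadjusted p under 0.05 there were 46 of the 156 (29.5%, against 23.2% of all genes), 36 toward doxorubicin, as were 1631 of the 2604 such genes among all 11230. DESeq2 called 18 toward doxorubicin and 2 toward stretch, and 910 and 405 of all 13112 genes it tested. The medians were -0.01, -0.08, -0.01, -0.01 and -0.35 in that order. In the tether list, which holds exocyst, HOPS and CORVET subunits, 2 of 16 genes (12.5%) lay on the stretch side, where 51.2% of all tested genes did. With library totals 14 of the 16 did. The list's median was -0.37 with doxorubicin library 3 alone. VPS11, a core subunit of HOPS and CORVET, chosen after its values were seen, had the lowest adjusted p of the tethers. It stood at 22.2, 46.7 and 14.6 CPM after doxorubicin and 11.5, 10.9, 8.11 and 9.36 CPM after stretch. Its difference was -1.43 (SE 0.41) and its adjusted p 0.0793 by edgeR.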

How the data were processed

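RNA from 3 doxorubicin and 4 stretch libraries of A549 was amplified with gene-specific primers (Ion AmpliSeq transcriptome, no molecular identifiers), per the labels' protocols. The deposited table holds expected counts per gene from the authors' processing; fastp 0.20.1, Salmon 1.9 and the build GRCh38 are named in the submitters' processing notes, without order. The values stand as whole numbers, taken to be rounded estimates. In all, 64 symbols in several rows were summed, and the row Metazoa_SRP (at most 0.00861% of a library) was left out, which left 14535 genes. Total counts ran from 2611766 to 7419798.

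Groups were compared with edgeR 4.0.16 in R 4.3.3 (TMM scaling, filterByExpr, quasi-likelihood test over all tested genes, Benjamini-Hochberg adjustment, threshold 0.05, no covariate). DESeq2 1.42.0 and limma-voom (limma 3.58.1), with and without library quality weights, other scalings and filters, and leaving out each library were the alternatives. The fit was tested on simulated data. Levels are CPM on TMM-scaled totals, and 3 counts were taken as the floor of detection; PCR reads are not independent molecules, so floors cover counting error only. No 2 libraries agreed within sampling noise.

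Named genes were the RAB genes past the threshold and those with non-overlapping groups (up to 8 in each direction). A fixed set of well-studied members and the regulators past the threshold were named too. The remaining RAB genes are given briefly. RAB1B, RAB4B, RAB36 and VPS11 fall outside this rule and are given in more detail, with their values known. The members and lists were chosen with earlier results of these data known, and the related pairs, motifs and printed promoters after the values were seen. Gene coordinates and shared sequence came from GENCODE 29 (GRCh38), promoters from RefSeq GRCh38.p14.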

Additional observations from a re-analysis of the deposited data

Results flagged for a closer look

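Among the 4 stretch libraries, 1 library stood apart from the other 3 for 2 of the 52 RAB genes examined, by Dixon's gap test, which chance passes in about 1 in 20 groups. RAB36, a Golgi-linked member, was at 10.01 CPM in stretch library 4 and at 8.61 to 8.77 CPM in the others, a gap of 0.881 of the range, past the test's limit for 4 values. RAB6A, a Golgi vesicle member, was at 168.7 CPM in the same library and at 107 to 117 CPM in the others, a gap of 0.841 of the range. Both genes had overlapping groups.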

How the results depend on the processing

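No paired analysis was possible because the doxorubicin and stretch libraries share no replicate number. RAB genes higher in stretch numbered 0, but 11 with library quality weights, and 0 to 5 when 1 library was left out (5 without doxorubicin library 3). RAB genes higher in doxorubicin numbered 0, but 3 by DESeq2 (RAB43 among them, on at most 3 counts), 8 with the weights, and 0 to 5 with 1 library left out. Regulators higher in stretch numbered 0, but 2 by DESeq2, 25 with the weights, and 0 to 18 with 1 library left out. Regulators higher in doxorubicin numbered 1, but 0 with library totals or with doxorubicin library 3 as the only one (spread from the stretch libraries alone), 18 by DESeq2, 50 with the weights, and 0 to 39 with 1 library left out. They numbered 0 without doxorubicin library 1 or any 1 of stretch libraries 4 to 7, and 39 without doxorubicin library 3. These rises came in fits that also called many other genes. With the weights, 2626 of all 11230 tested genes were called toward stretch and 2677 toward doxorubicin (47.2% together). Without doxorubicin library 3, it was 1858 and 1878 of 11618 (32.2% together). RAB3B moved from -0.07 to 0.57 with the weights (adjusted p = 0.0493 by limma-voom). The cause was not tested. Over the alternatives in which each could be tested (16, but 12 to 15 for members of few counts), 22 of 49 RAB genes kept their sign (17 toward stretch, 5 toward doxorubicin), 30 never passed and 10 passed in at least 2. The library-totals fit, with 44 of 49 toward stretch, is among these alternatives. All passes came from DESeq2, the weights and the fit without doxorubicin library 3, which called 10%, 47.2% and 32.2% of all genes. The same counts were not made over all genes. Doxorubicin library 2, the shallowest, limits members of few counts such as RAB17, RAB9A and RAB33A.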
